A study of Mus musculus with 4 samples.

Results

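This report describes trimethylation of histone H3 at lysine 36 (H3K36me3) over 4 very long genes of skeletal muscle, Ttn, Neb, Dysf and Ryr1, in cultured mouse myocytes. The genes were given by name, each with a fixed window on the mm9 build, and an enriched region (island) belonged to a gene when it overlapped its window. By this rule 49 of 58326 islands of the wild-type library and 59 of 69798 islands of the mutant library belonged to the 4 genes. The rule used no measured value, but the genes were proposed with earlier results of these lists known, among them the long islands over Dysf and Ttn.

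The study profiled H3K36me3 by chromatin immunoprecipitation and sequencing in 2 genotypes, both of strain FVB: wild-type cells, and cells that lack an enhancer acting in muscle on H19 and Igf2, called the mutant here. Myoblasts came from skeletal muscle of pups at postnatal day 4, were grown for 5 to 10 passages, and were made to differentiate by withdrawing growth factors for 24 hours. Each genotype had 1 H3K36me3 library and 1 input library; the 2 inputs were not analysed here. As neither genotype was repeated, differences could not be tested, and each one below is a difference between 2 libraries.

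H3K36me3 is written by the enzyme SETD2, which travels with elongating RNA polymerase II, so the mark spreads over the bodies of transcribed genes, is sparse at their start sites and usually builds up toward their 3′ ends. Ttn encodes titin, the elastic filament that spans from the Z disc to the M line of the sarcomere. Neb encodes nebulin, which runs along the thin filament. Dysf encodes dysferlin, a membrane protein needed to reseal torn muscle fibres, and Ryr1 encodes the calcium release channel of the sarcoplasmic reticulum. Other marker genes of muscle or of other cell types were not analysed here, since no annotation of mm9 was at hand.

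The windows lay on chromosome 2 for Ttn (76541000 to 76821000) and Neb (51990000 to 52195000), on chromosome 6 for Dysf (83958000 to 84162000) and on chromosome 7 for Ryr1 (29788000 to 29911000). They were 1.16 to 2.84 kb longer than the genes are in the GRCm38.p6 gene table, so each gene nearly fills its window. Ttn and Ryr1 are read from the reverse strand and Dysf from the forward strand, per the RefSeq promoter table. That table matched 3 of the 4 genes; for Neb the reverse strand was taken from general knowledge. Which bases were exons, introns or untranslated regions was not analysed here.

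Start regions of 3 of the genes are shown because, in both libraries, the 5′ end of each window was free of islands. The second start of Dysf lies deeper in the gene than that free stretch. They are RefSeq sequences of GRCm38.p6, whose coordinates are not on the mm9 scale of the islands, and each runs from 250 bases before to 50 after the start. Capitals mark matches to CANNTG, the E-box that myogenic factors such as MyoD and myogenin can bind; the motif reads the same on both strands.
Ttn (chr2:76982498-76982797, reverse strand): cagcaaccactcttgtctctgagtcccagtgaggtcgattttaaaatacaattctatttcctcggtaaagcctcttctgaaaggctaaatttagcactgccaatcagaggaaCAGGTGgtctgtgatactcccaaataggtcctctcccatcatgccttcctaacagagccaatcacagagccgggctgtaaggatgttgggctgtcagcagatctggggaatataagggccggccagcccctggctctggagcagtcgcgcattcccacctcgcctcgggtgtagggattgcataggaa
Dysf, first start (chr6:84008348-84008647, forward strand): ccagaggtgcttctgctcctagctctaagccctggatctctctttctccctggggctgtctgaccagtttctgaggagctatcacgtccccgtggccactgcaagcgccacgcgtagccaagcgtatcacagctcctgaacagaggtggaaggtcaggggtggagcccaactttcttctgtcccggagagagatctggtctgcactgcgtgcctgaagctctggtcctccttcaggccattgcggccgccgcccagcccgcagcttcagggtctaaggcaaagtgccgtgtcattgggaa
Dysf, second start (chr6:84019136-84019435, forward strand): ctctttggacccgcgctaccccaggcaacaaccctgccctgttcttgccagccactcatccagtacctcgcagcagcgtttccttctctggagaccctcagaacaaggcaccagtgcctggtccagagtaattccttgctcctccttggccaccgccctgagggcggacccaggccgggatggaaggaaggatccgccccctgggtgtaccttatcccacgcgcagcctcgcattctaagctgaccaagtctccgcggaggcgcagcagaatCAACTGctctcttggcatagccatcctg
Ryr1 (chr7:29125102-29125401, reverse strand): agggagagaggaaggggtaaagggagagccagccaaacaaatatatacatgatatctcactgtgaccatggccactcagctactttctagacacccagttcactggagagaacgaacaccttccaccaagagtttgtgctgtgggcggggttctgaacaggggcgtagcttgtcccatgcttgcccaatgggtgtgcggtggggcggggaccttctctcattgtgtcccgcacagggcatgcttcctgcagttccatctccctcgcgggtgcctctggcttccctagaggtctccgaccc

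The E-box occurred once in the Ttn sequence and once in that of the second Dysf start, and at no place in the other two. Among all 32851 sequences of the table, 72.3% held at least 1 match, with a median of 1. The Dysf starts lie 10.8 kb apart. The G+C content was 51.7% for Ttn, 60% and 61% for Dysf and 56.7% for Ryr1, against a median of 52.7% in the table. A match is a description of letters and not a bound site.

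All 4 gene bodies were broadly marked in both libraries. Islands covered 83.2% of the Ttn window in wild-type cells and 88.1% in mutant cells. The Neb window was covered to 87.6% and 87.8%. For Dysf the values were 96.3% and 85.01%, and for Ryr1 96.1% and 87.01%. Thus 4 of 4 windows were covered to at least 50% in each library. Of the 13181 bins of 200 kb on chromosomes 1 to 19 and X, 3.77% reached that level in wild-type cells and 3.71% in mutant cells. Bins do not follow gene ends as the windows do, so a window drawn around a marked gene is favoured in this comparison.

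**Figure D1:**
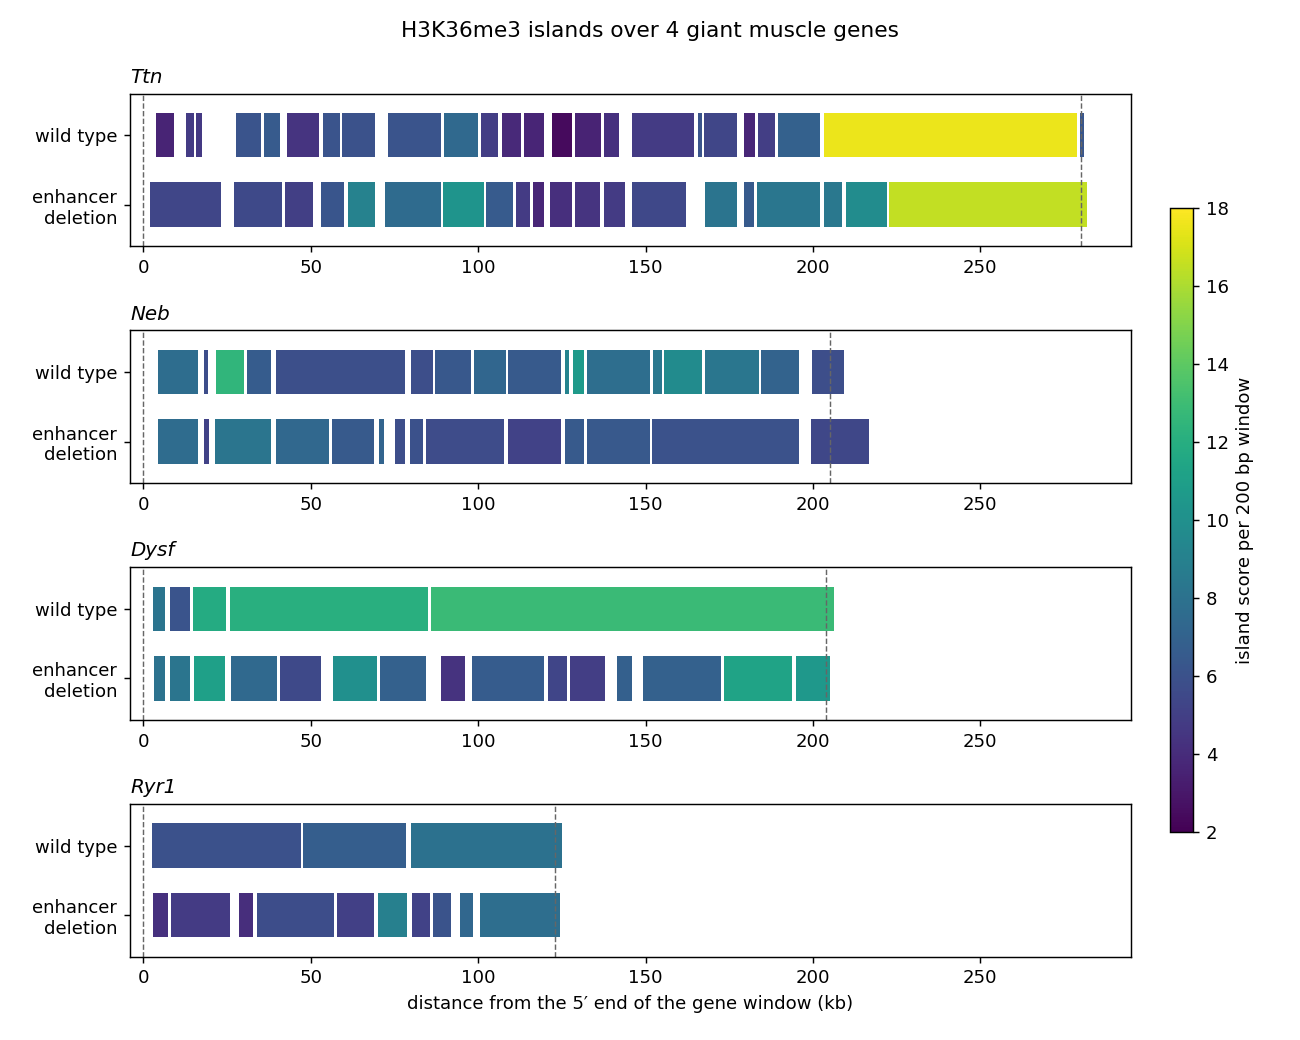
Islands over the 4 gene windows, one row per library, drawn against distance in kb from the 5′ end of the window; dashed lines are the window's ends and colour is the deposited island score divided by the island's number of 200 bp windows. The wild-type library has 5 islands over Dysf and 3 over Ryr1, where the mutant library has 15 and 10, and the 3′ end of Ttn carries the island with the highest score per window in both.

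The order of the genes by cover differed between the libraries. In the wild type Dysf and Ryr1 came first with nearly the same cover, followed by Neb and then Ttn. In the mutant the 4 values lay between 85.01% and 88.1%, with Ttn highest and Dysf lowest. The mutant thus covered 4.85 percentage points more of Ttn, and the change was -11.3 points at Dysf and -9.09 at Ryr1. At Neb the mutant value was higher by 0.195 points, a direction that turned with the setting: with islands within 2 kb joined the values were 94.8% and 94.5%, and with islands of 2 kb and more they were equal, at 86.35%. Dysf was the 1 of 4 windows with a loss of 10 points or more. That size of loss was found in 13.1% of the 624 bins covered to 50% or more in either library. A loss of this kind was therefore not rare among marked bins, and Ryr1 lay just outside the limit.

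The number of islands moved in opposite directions in the genes. Dysf was covered by 5 islands in wild-type cells and 15 in mutant cells, and Ryr1 by 3 and 10. Ttn was covered by 24 islands in wild-type cells and 20 in mutant cells, and Neb by 17 and 14. Over the whole genome the mutant list also held more and shorter islands. It had 69798 islands over 297.8 Mb with a median length of 3 kb, against 58326 over 308.1 Mb and 3.8 kb in the wild type. The lowest score of the mutant list was 22.64, against 30.28 in the wild type, so the mutant list admitted weaker islands. How far this raised its number of islands or lowered their median length was not tested. Inside a gene window, islands are split wherever more than 600 bp lack enough reads, so more islands at like cover mean more such breaks. Within the windows, breaks added up to 4.4 kb in wild-type cells and 27.2 kb in mutant cells at Dysf, and to 2.2 and 13.2 kb at Ryr1. At Ttn they added up to 43.2 and 31.4 kb, and at Neb to 21 and 20.6 kb.

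Across the 4 genes most covered bases were covered in both libraries. The length covered in both, as a share of the length covered in either, was 85.9% for Ttn, 92.1% for Neb, 88.3% for Dysf and 88.6% for Ryr1. Each window was covered to 83.2% or more in both libraries, so a high share follows largely from the cover. The share that unrelated islands of the same cover would give was not computed. At Dysf no base was covered in mutant cells alone, against 23 kb in wild-type cells alone. Ryr1 had 12.4 kb in wild-type cells alone and 1.2 kb in mutant cells alone. In Ttn the balance was the other way, with 11.4 kb in wild-type cells alone and 25 kb in mutant cells alone. Neb had 7.2 and 7.6 kb. The stretches found in 1 library alone were short, the longest being 5.8 kb, in Ttn.

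In Ttn and Neb many breaks were shared by the libraries. Of the 23 breaks in Ttn in wild-type cells, 14 overlapped a break in mutant cells, and of the 19 in mutant cells 13 overlapped one in wild-type cells. In Neb these counts were 9 of 16 and 9 of 13. All 4 wild-type breaks in Dysf overlapped a break in mutant cells, and 10 of the 14 mutant breaks lay wholly inside wild-type islands. In Neb, 11 island edges fell on the identical base in both lists, among 34 wild-type and 28 mutant edges. The other genes had fewer: 8 in Ttn (of 48 and 40), 2 in Dysf (of 10 and 30) and 0 in Ryr1 (of 6 and 20). Edges can fall only at the ends of 200 bp windows. Among the Neb islands, 2 had the same first and last base in both lists. That on chromosome 2 from 52178801 to 52190600 (11.8 kb) had deposited scores of 450 in wild-type cells and 449 in mutant cells. That from 52070201 to 52086000 (15.8 kb) had scores of 509 and 409.

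The 5′ end of every window was unmarked. From the 5′ end, the first island began at 3.8 kb in wild-type cells and 2 kb in mutant cells for Ttn, and at 4.4 kb in both for Neb. For Dysf it began at 3.0 and 3.2 kb, and for Ryr1 at 2.6 and 2.8 kb. These stretches are longer than the 1.42, 2.84, 1.3 and 1.16 kb by which the windows exceed the genes, in the order Ttn, Neb, Dysf, Ryr1. At the 3′ end, by contrast, an island ran to or past the window's end in all 4 genes and both libraries.

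Beyond the windows the cover differed from gene to gene. The 20 kb upstream of Ttn and of Ryr1 held no island in either library. Upstream of Neb, islands covered 5% in wild-type cells and 16% in mutant cells. Upstream of Dysf they covered 91% and 75%; the next protein-coding gene there in the GRCm38.p6 table, Zfp638, lies 21.5 kb away. Downstream of Ttn, toward Plekha3, 69% and 66% of the 20 kb was covered, and downstream of Neb, toward Rif1, 69% and 87%. Downstream of Dysf the values were 12% and 6%, and downstream of Ryr1, toward Map4k1, 9% and 6%. Cover was thus low past the 3′ ends of Dysf and Ryr1 and above 50% past those of Ttn and Neb. In the same gene table Plekha3 lies 6.64 kb past Ttn, Rif1 9.87 kb past Neb and Map4k1 0.06 kb past Ryr1. These 3 flanks of 20 kb thus hold part of a neighbouring gene, whereas the next one past Dysf, Cyp26b1, lies 360 kb away. Which gene the downstream islands belong to was not analysed here. In mutant cells the 20 kb downstream of Neb was covered more than part 10 of 10 of its window, which had 82.5%. The mean island score of the 20 kb downstream of Ttn was 2.45 in wild-type cells and 4.33 in mutant cells, per 200 bp window, far below that of the gene's 3′ end given further on.

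**Figure D2:**
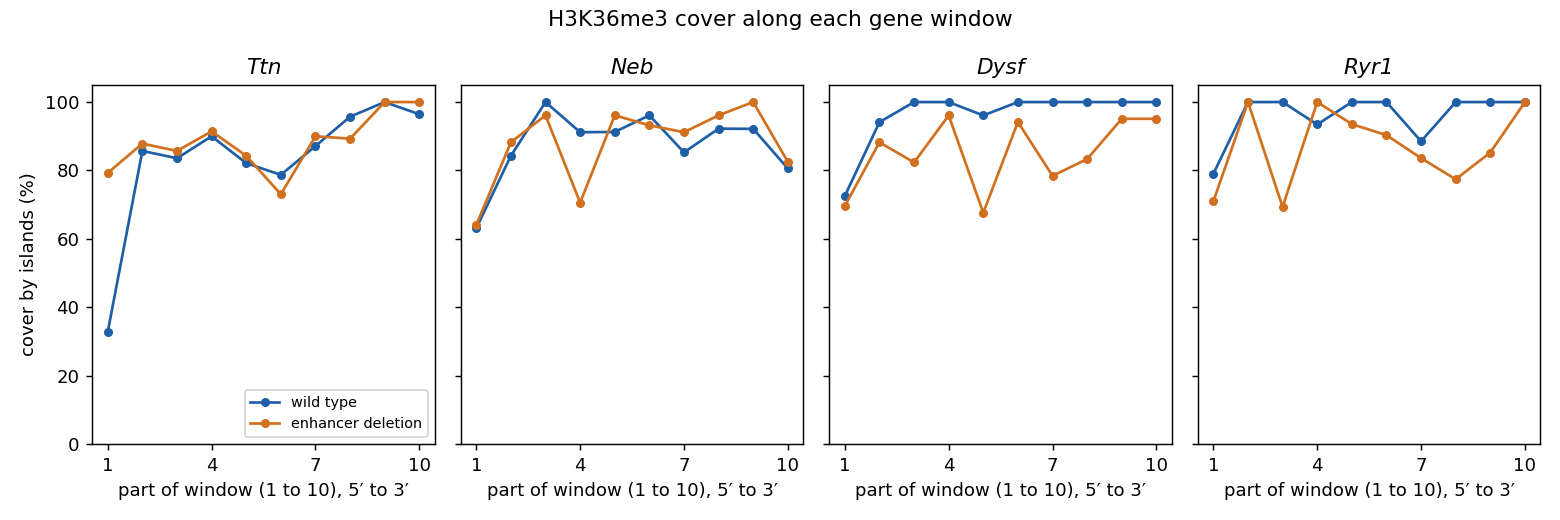
Percentage of bases covered by islands in each of 10 equal parts of the 4 gene windows, from the 5′ end (part 1) to the 3′ end (part 10), with 1 line per library. Part 1 of Ttn is covered to 32.9% in wild-type cells and 79.3% in mutant cells, and in the other genes part 1 lies between 63.1% and 79.03% in both libraries.

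In both libraries each gene had more cover in the 3′ 50% of its window than in the 5′ 50%. In Ttn the 3′ side was covered to 91.6% and the 5′ side to 74.9% in wild-type cells, a difference of 16.7 percentage points. In the mutant the 2 sides of Ttn had 90.4% and 85.7%, 4.73 points apart. The differences were 3.31 and 9.55 points in Neb, 7.45 and 8.45 in Dysf, and 3.25 and 0.649 in Ryr1, wild type before mutant. In Ryr1 the direction turned when the window was made 10 kb shorter on each side, to -1.16 and -6.20 points. The unmarked 5′ stretch lies in the part so removed.

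Where the 2 libraries parted most in Ttn was its 5′ end. Part 1 of 10 was covered to 32.9% in wild-type cells and 79.3% in mutant cells, whereas parts 2 to 10 lay between 73.05% and 100% in both libraries. Over the first 23.2 kb the wild type had 3 islands of 1.6 to 5.2 kb, and the mutant had 1 island of 21.2 kb on chromosome 2 from 76797801 to 76819000. Of that mutant island, 42.5% was covered in wild-type cells.

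Cover says only whether a base lies in an island. The deposited score of an island, divided by its number of 200 bp windows, says in addition how far the reads there stood above the library's average. The score of SICER, the program that called the islands, is summed over windows with enough reads, each adding the natural log, with its sign turned, of how probable its read count would be under a Poisson law. It rises with depth. Depth was solved as 2.82 reads per window in wild-type cells and 3.11 in mutant cells, so at equal enrichment the mutant scores would be the higher. The median island of the whole list had a score per window of 3.62 in wild-type cells and 3.95 in mutant cells.

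By score per window, the strongest mark in the 4 genes was the 3′ end of Ttn. In the wild type an island of 75.4 kb on chromosome 2 (76542201 to 76617600) reached 17.6 per window, the sixth score of its list (rank 6) and higher per window than 99.9% of wild-type islands of at least 2 kb. In the mutant an island of 59.2 kb (76539001 to 76598200) reached 16.6 per window, with rank 8 by score and above 99.8% of such mutant islands. By total score the 120.6 kb island of Dysf in wild-type cells stood higher, with 7746 (rank 5) against 6621 for the Ttn island, and it was also the longest of its list. The remaining Ttn islands lay between 2.39 and 7.42 per window in wild-type cells and between 3.70 and 10.3 in mutant cells. The last 25% of the Ttn window carried 56.4% of the summed score in wild-type cells and 47.7% in mutant cells. The first 25% carried 11.4% and 15.7%.

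None of the other 3 genes rose so steeply toward its 3′ end. The mean score of the 3′ 50% divided by that of the 5′ 50% was 2.97 in wild-type cells and 1.95 in mutant cells for Ttn. It was 1.17 and 0.960 for Neb, so the direction in Neb differed between the libraries. For Dysf it was 1.19 and 1.14, and for Ryr1 1.29 and 1.40. Scores within a long island were spread evenly over its windows, so a rise inside 1 island, such as the 120.6 kb island of Dysf, cannot be seen.

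To set the libraries side by side, each gene was cut into blocks, unbroken stretches that islands of either library cover, so that every block holds whole islands of both. Ttn had 15 blocks, Neb 10, Dysf 5 and Ryr1 2. In Ttn 12 of 15 blocks scored higher in mutant cells, with a median ratio of mutant to wild type of 1.29. In Neb 3 of 10 did, with a median of 0.895, in Dysf 1 of 5 and in Ryr1 0 of 2. Among the 3 Neb blocks was block 10, most of which lies past the 3′ end of the window. For scale, the 624 bins covered to 50% or more in either library had a median ratio of 1.06. Of these bins, 45.7% had a ratio as low as that of the whole Ttn window, 1.04. Ratios above 1 were thus common among marked bins, and the mutant library was the deeper one. The share of higher blocks over the rest of the genome was not computed. Blocks of a gene share a transcript and a library and are not replicates.

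**Figure D3:**
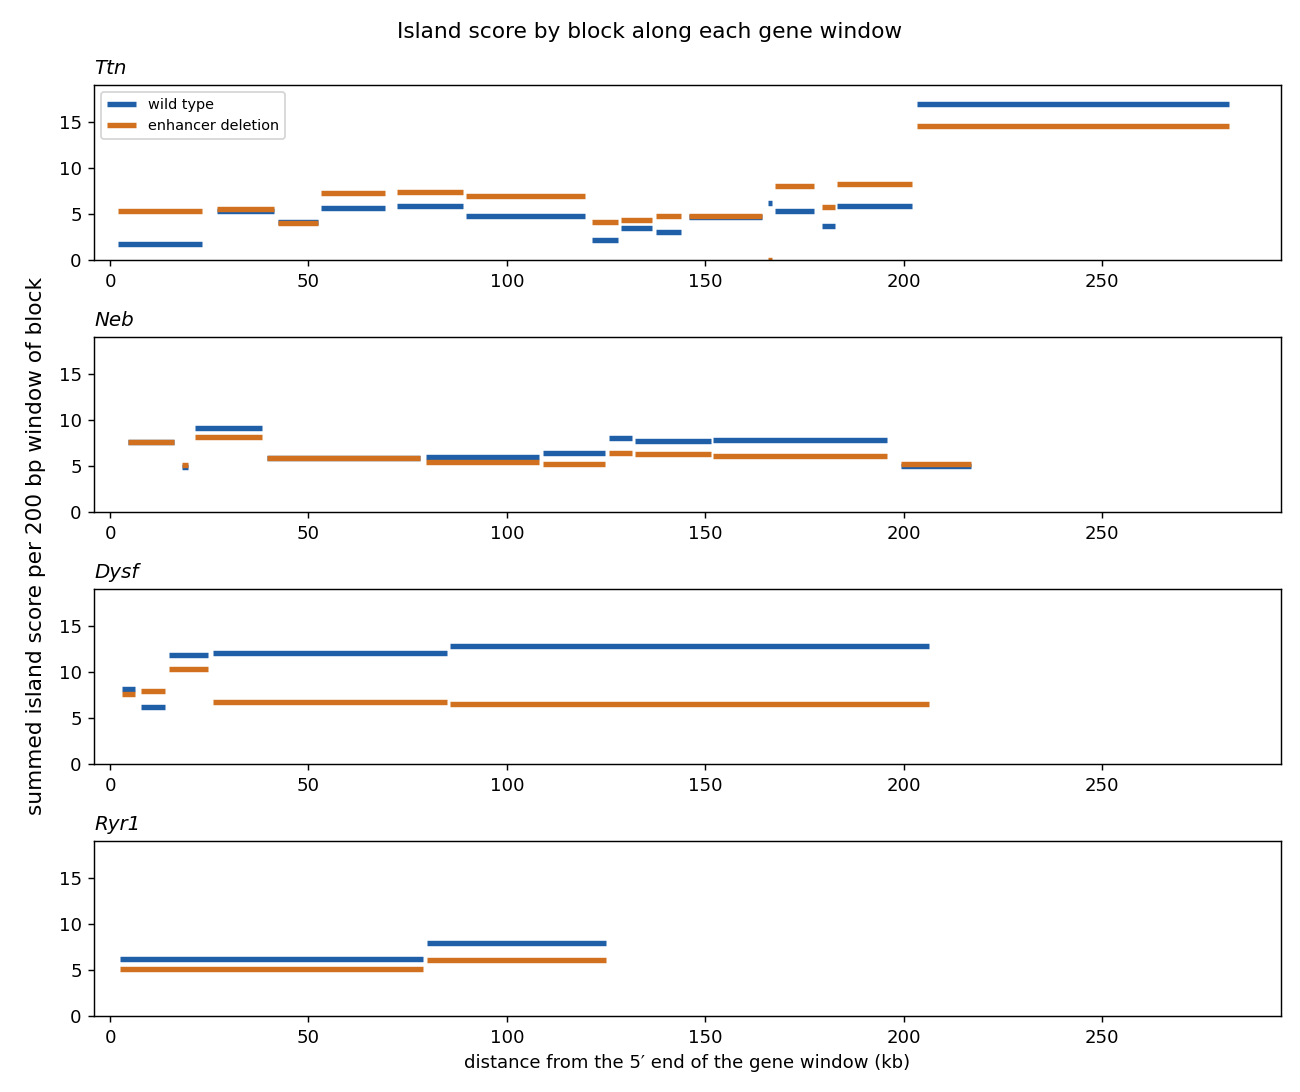
Summed island score per 200 bp window for each block, a stretch covered by islands of either library, against distance in kb from the 5′ end of the gene window; blue bars are the wild-type library and orange bars the mutant library. Over Dysf the bars lie close together up to 24.8 kb and apart from 26 kb on, at 12.1 and 12.9 in wild-type cells and 6.73 and 6.50 in mutant cells.

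Dysf showed the largest difference of the 4 genes. Its mean score over all windows was 11.8 in wild-type cells and 6.59 in mutant cells, a ratio of 0.557. Among the 624 bins marked in either library the median ratio was 1.06, and 2.08% of the bins (13 bins) had a ratio as low as that of Dysf. Of these 13 bins, 1 overlaps the Dysf window itself. Dysf was also the 1 of 4 windows whose score was lower in mutant cells by 1.5 times or more, which held for 4.33% of these bins. This call rests on the score, for which the limit was set. By the depth-scaled enrichment explained further on, a different measure, the ratio at Dysf was 0.684, short of 1.5 times. The share of bins was not computed for that measure. The lower value is in the deeper library.

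The difference at Dysf did not run through the whole gene. Blocks 1 to 3, which end 24.8 kb from the 5′ end of the window, had deposited scores of 139, 185 and 590 in wild-type cells and 129, 238 and 518 in mutant cells, with 3 islands in each library. Summed, they scored 9.41 per window in wild-type cells and 9.12 in mutant cells, a ratio of 0.969. Blocks 4 and 5, which start at 26 kb and reach past the 3′ end, scored 12.6 and 6.57 per window, a ratio of 0.522. There the wild type had 2 islands, of 59 and 120.6 kb, and the mutant had 12, the longest of 23.2 kb. This division was chosen after the values were seen. The 20 kb upstream of the window also scored alike, at 6.38 in wild-type cells and 6.68 in mutant cells.

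Within the later part of Dysf the mutant was uneven. Its islands there ranged from 4.32 per window, at 89 to 96.2 kb, to 11.3 per window, at 173.4 to 193.8 kb. The last 2 mutant islands, from 173.4 kb on, reached 11.3 and 10.5, above 98.99% and 98.6% of mutant islands of at least 2 kb. The mutant islands between 26 and 172.4 kb lay from 4.32 to 9.95. In the wild type the 2 long islands had 12.1 and 12.9, above 99.5% and 99.6% of their list.

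Ttn behaved otherwise on its 2 sides. Block 15, the 78.6 kb at the 3′ end, scored 16.9 per window in wild-type cells and 14.6 in mutant cells, a ratio of 0.859. The other 14 blocks together scored 4.53 and 6.18, a ratio of 1.37 (chosen after the values were seen). The highest ratio was 3.11, in block 1 at 2 to 23.2 kb. Block 11, a 1 kb wild-type island, held no mutant island. Over the whole window the mean scores were 7.67 and 7.98, a ratio of 1.04. This small excess turned to 0.970 when islands within 2 kb were joined.

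Neb and Ryr1 differed less. The mean score over the Neb window was 6.42 in wild-type cells and 5.62 in mutant cells, a ratio of 0.875, and 19.9% of the marked bins had a ratio as low. By block the Neb ratio ran from 0.773, in block 9 at 152 to 195.8 kb, to 1.05, in block 10. Block 10 spans 199.4 to 217 kb, and most of it lies past the 3′ end of the 205 kb window, toward Rif1. The next highest ratio was 1.04, in block 2 at 18.2 to 19.6 kb. At Ryr1 the means were 6.61 and 5.30, a ratio of 0.802, with 12.2% of bins as low. Its 2 blocks had 0.824 on the 5′ side and 0.767 on the 3′ side.

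**Figure D4:**
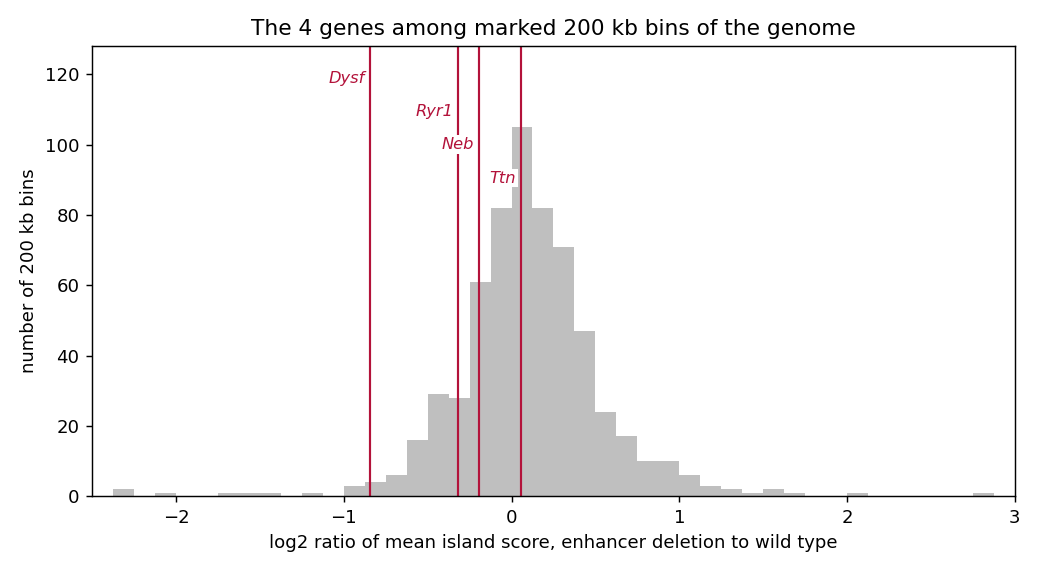
Grey bars count the 624 bins of 200 kb covered to 50% or more in either library by the log2 ratio of their mean island score, mutant to wild type; red lines are the 4 gene windows. The lines for Dysf, Ryr1 and Neb (ratios of 0.557, 0.802 and 0.875) lie below the median bin (1.06), and that for Ttn (1.04) lies near it.

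Read as enrichment, the ranking of the genes was as follows. The read count at which a single 200 bp window would have the mean score was divided by the library's mean reads per window. This scales for depth but may not remove its whole effect, since depth also bears on which windows have enough reads. By this approximate measure, in which windows outside islands count as 0, Dysf stood at 4.60 times the mean in wild-type cells, Ttn at 3.58, Ryr1 at 3.28 and Neb at 3.23. In the mutant the order was Ttn at 3.50, Dysf at 3.14, Neb at 2.87 and Ryr1 at 2.78. Ryr1 and Neb were neighbours in both orders and exchanged places, and the values in each pair were close. The 3′ block of Ttn stood at 5.68 in wild-type cells and 4.94 in mutant cells, and its other 14 blocks at 2.64 and 3.03. Blocks 1 to 3 of Dysf stood at 4.03 and 3.78, and blocks 4 and 5 at 4.77 and 3.14.

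Among all 200 kb bins, those with a higher mean score than the gene window were few. In the wild type 4 of 13181 bins exceeded Dysf, 7 exceeded Ttn, and 11 each exceeded Neb and Ryr1. In the mutant 6 exceeded Ttn, 12 Dysf, 30 Neb and 41 Ryr1. The inputs were not used to screen these bins, and a bin may overlap a gene window.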

How the data were processed

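Values came from 2 island lists, 1 per H3K36me3 library, in which the authors deposited the position and score of each island. Bowtie 1.0.0 (alignment) and SICER 1.1 (calling of broad regions) are named in the submitters' processing notes, with build mm9; windows were 200 bp and gaps 600 bp, by the names of the deposited lists. Use of the inputs and treatment of duplicate reads are not given in the sources used here. Coordinates are counted from 1.

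Cover was counted on 200 bp windows (Python 3.11.15, numpy 2.4.6, pandas 2.3.3). The files hold no read totals. Depth was solved from the scores of islands of 1 window (8 in the wild type, 14 in the mutant), which take only values that whole read counts allow. The mutant library was 1.10 times as deep. The computations were tested on simulated data. The named genes are the 4 given; these genes, the lists and the limits of 10 points and 1.5 times were chosen with earlier results of these data known. The comparison of scores and the blocks were added after the files were seen. Lists of other muscle genes and cell type markers were not analysed here, since no mm9 annotation was given. No p-value is given, and depth limits each value by counting error that the lists do not state.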

Additional observations from a re-analysis of the deposited data

How the results depend on the processing

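Alternatives to the cover results were planned, and those to the mean score ratio were added after the data were seen. The settings kept the upper 50% of each list by score, kept islands of 2 kb and more, joined islands within 2 kb, cut the lists to equal covered length, applied a common lowest score, or made the windows 10 kb longer or shorter on each side. The direction of the cover ratio held in Ttn, Dysf and Ryr1 in all 7 settings. In Dysf and Ryr1, however, the upper 50%, islands of 2 kb and more, equal covered length and the common lowest score removed no island. The cover ratios there stayed at 0.883 and 0.905, and these settings could not have turned any result of the 2 genes. The common lowest score also left the cover of Ttn (83.2% and 88.1%) and of Neb (87.6% and 87.8%) unchanged. Equal covered length left that of Neb unchanged. These settings could not have turned the results there either. With islands joined, the cover ratio of mutant to wild type was 1.04 (Ttn), 0.924 (Dysf) and 0.954 (Ryr1), and that of Neb turned to 0.997. With longer windows it was 1.063 (Ttn), 1.02 (Neb), 0.868 (Dysf) and 0.902 (Ryr1). With shorter windows it was 1 (Neb), 0.880 (Dysf) and 0.899 (Ryr1), and in the upper 50% it was 1.099 (Ttn). The mean score ratio of Ttn turned to 0.970 with islands joined and lay between 1.026 and 1.06 otherwise. No other mean score ratio turned. Over all settings it lay between 0.867 and 0.885 in Neb, 0.537 and 0.561 in Dysf, and 0.7935 and 0.802 in Ryr1.

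For cover of the 3′ side minus the 5′ side, in percentage points, wild type before mutant, joining gave 14.4 and 4.01 (Ttn), 2.53 and 3.90 (Neb), 3.14 and 4.33 (Dysf) and 4.22 and 4.87 (Ryr1). Longer windows gave 19.2 and 8.95 (Ttn), 10.5 and 15.8 (Neb), 0.905 and 3.60 (Dysf) and 5.31 and 2.235 (Ryr1). Shorter windows gave 3.24 and 9.72 (Neb), 3.26 and 4.81 (Dysf), and -1.16 and -6.20 (Ryr1), which turned. The upper 50% gave 16.02 for Ttn in the wild type. The causes were not tested. With 5 or 20 parts in place of 10, cover of part 1 of Ttn was 59.3% or 45.7% in the wild type, against 85.7% with 20 parts in the mutant. With bins of 100 or 300 kb, the share of marked bins whose score was lower by 1.5 times was 6.37% or 5.88%.

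No paired analysis was possible because each genotype has 1 library. Island lists show no reads outside islands, and the score of a long island is not resolved along its length.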
